A study of Mus musculus with 121 samples.

Results

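The BCL2 family decides, through its balance of members, whether a cell opens the outer membrane of its mitochondria and dies by apoptosis. Its transcripts were followed here gene by gene through 121 single cells of mouse bone marrow. The family was taken as 10 named genes among the 23946 genes of the deposited table, and all 10 were found in it. The 5 death members were Bax, Bak1, Bad, Bid and Bcl2l11, and the 5 survival members were Mcl1, Bcl2, Bcl2l1, Bcl2a1b and Bcl2a1d. They were chosen by name and role, with no measured value in the rule, but the states they are read across are names given by the authors to these same cells. By which genes those names were assigned, and whether members were among them, the sources used here do not say.

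All cells came from C57BL/6 mice with the R412X allele of Gfi1, a zinc finger repressor needed to make neutrophils, whose mutation is linked to neutropenia. Their genotype is written Gfi1-R412X/- under one label and HTZ under another, and every cell carries both forms. No wild-type cell and no age was analysed here, so nothing below measures the effect of the allele. Cells were enriched on CD117, sorted, captured on the Fluidigm C1 and amplified with the SMARTer kit, and 46 were labelled CD11b+ GMP-P and 75 GMP. In this field GMP usually means granulocyte-monocyte progenitor, and CD11b is an integrin chain of maturing myeloid cells. The CD11b+ GMP-P cells came from 1 run, dated late July. Of the GMP cells, 62 came from an undated run, called the other run. The remaining 13 carry a late July date under 2 run names, 10 without and 3 with a year, and are pooled here as late July GMP because 3 cells are too few for a mean. The deposited table names 12 states, and 8 of them hold at least 5 cells: Mono 38, Myelo-2 18, Gran-2 15, Gran-1 14, MP 11, Myelo-4 10, and Myelo-1 and cMoP 5 each. Population and run are tied, and their contributions cannot be told apart. No animal is named, so each population counts as 1 sample, cells are not replicates, and no p-value or standard error is given.

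As background, Bax and Bak1 are the effectors that form pores in the mitochondrial outer membrane and release cytochrome c. Bid, Bad and Bcl2l11 (Bim) are BH3-only proteins, which carry death signals to the effectors or tie up the survival members. Bcl2, Mcl1, Bcl2l1 (Bcl-xL) and the A1 proteins made by the Bcl2a1 genes bind the death members and hold them in check. Mature neutrophils are short-lived and are known to depend on Mcl1, a protein of rapid turnover. These roles are exercised by protein, and the data here are transcripts.

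Levels are TPM, a transcript abundance scaled by gene length and to a fixed total per cell, so that members can be set beside each other within a cell. Detected, or positive, means at least 1 TPM. Means are of log2(TPM + 1), and the SD beside them is the spread among single cells, not an error between replicates. For shares, the interval is the exact (Clopper-Pearson) 95% interval, or for 0 cells the upper limit set by 3 cells, and both cover counting error only. Cells held between 967 and 6153 detected genes, 81.7% of all values in the table were 0, and read depth is unknown, so a 0 can be a missed transcript. The median was 4657 detected genes in Mono, 4455 in MP, 4367 in Gran-1, 3760 in Gran-2, 2448.5 in Myelo-2 and 1685.5 in Myelo-4. Of 8 monocyte markers, 7 were detected in at least 50% of Mono cells and of cMoP cells and none in at least 50% of Gran-2 or Myelo cells. Summed secondary granule transcripts had a median of 45.9 TPM in Mono, 27321 in Gran-2, 213799 in Myelo-2 and 242348 in Myelo-4. The deposited names and these markers point the same way, but the names were given to these same cells, so this is no independent check. MP cells also held 6 of the 8 monocyte markers in at least 50% of cells.

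3 promoters are shown because their genes stand for the patterns described below: Bax was listed at 0 in Myelo-2 and Myelo-4 and Bid was not detected in Myelo-4, while Mcl1 was detected in most cells of both. Each is the 250 bases before the annotated start, 5′ to 3′ on the gene's strand, from RefSeq on GRCm38.p6. The deposited table rests on mm9, another build. Capitals mark AATC, the core letters known from Gfi1 binding sites, or GATT, its reverse complement.
Bax promoter (chr7:45466899-45467148, minus strand): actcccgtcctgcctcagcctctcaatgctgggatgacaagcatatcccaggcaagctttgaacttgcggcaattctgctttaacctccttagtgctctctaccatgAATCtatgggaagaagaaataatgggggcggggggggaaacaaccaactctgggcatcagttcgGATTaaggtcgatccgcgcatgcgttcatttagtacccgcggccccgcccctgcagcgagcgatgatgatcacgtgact
Bid promoter (chr6:120916825-120917074, minus strand): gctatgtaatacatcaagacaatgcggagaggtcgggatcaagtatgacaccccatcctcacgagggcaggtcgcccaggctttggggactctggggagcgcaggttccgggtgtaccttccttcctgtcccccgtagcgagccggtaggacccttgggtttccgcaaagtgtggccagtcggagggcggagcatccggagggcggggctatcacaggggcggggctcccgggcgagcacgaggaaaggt
Mcl1 promoter (chr3:95658471-95658720, plus strand): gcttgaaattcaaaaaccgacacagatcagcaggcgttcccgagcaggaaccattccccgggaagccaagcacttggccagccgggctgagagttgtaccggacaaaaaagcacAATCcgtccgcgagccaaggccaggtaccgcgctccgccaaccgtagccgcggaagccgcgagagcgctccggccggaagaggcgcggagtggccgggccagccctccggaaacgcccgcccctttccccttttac
The Bax window held 2 matches to AATC on either strand, the Mcl1 window 1 and the Bid window 0. Of 32851 RefSeq promoter windows of the same length, 69.02% held at least 1, so a match in Bax or Mcl1 sets neither apart. The longer form AAATCAC was in 2.75% of all windows and in no window of a member. A match is a description of letters and not a binding site.

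Bax transcripts were common in the monocytic state, intermediate in Gran-2 and absent from the table in the Myelo-2 and Myelo-4 states. In Mono, Bax ran from 0 to 351 TPM with a median of 26.2 and was detected in 27 of 38 cells (71.1%, interval 54.1 to 84.6%). Gran-1 cells ran from 0 to 507 TPM with a median of 14.02, and 9 of 14 were positive. In Gran-2 the range was 0 to 121 TPM with a median of 0, and 7 of 15 cells were positive. Every one of the 18 Myelo-2 and 10 Myelo-4 cells was listed at 0, and 0 of 28 allows a share of up to 10.7%, below the interval of Mono. Mono and Gran cells thus reach high while also holding many zeros, and the cells at 0 overlap with the Myelo cells. By mean log2(TPM + 1) the order was Mono 4.24 ± 3.16 (SD, n = 38 cells), Gran-1 3.55, cMoP 3.51, MP 2.33, Gran-2 2.12 and Myelo-1 1.96, ahead of Myelo-2 and Myelo-4. The zeros of Bax stood with fewer detected genes: over the 10 groups of a state within a run holding at least 5 cells, mean Bax and median detected genes had r = 0.877, a description over groups that share runs and depth. A reading at matched gene number was possible only with few cells. Among cells with 2000 to 3500 detected genes, Bax was in 0 of 12 Myelo-2 and 1 of 5 Gran-2 cells, so at that depth a difference was not detectable.

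Bak1, the other effector, was scarce everywhere. It was detected in 12 of 121 cells (9.92%, interval 5.23 to 16.7%), and its highest value was 61.3 TPM in 1 Gran-2 cell. No state reached a mean log2 level above 0.56, the value in MP. Counted together, at least 1 effector was detected in 28 of 38 Mono cells and in 2 of the 28 Myelo-2 and Myelo-4 cells, and both of the latter were positive for Bak1.

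**Figure D1:**
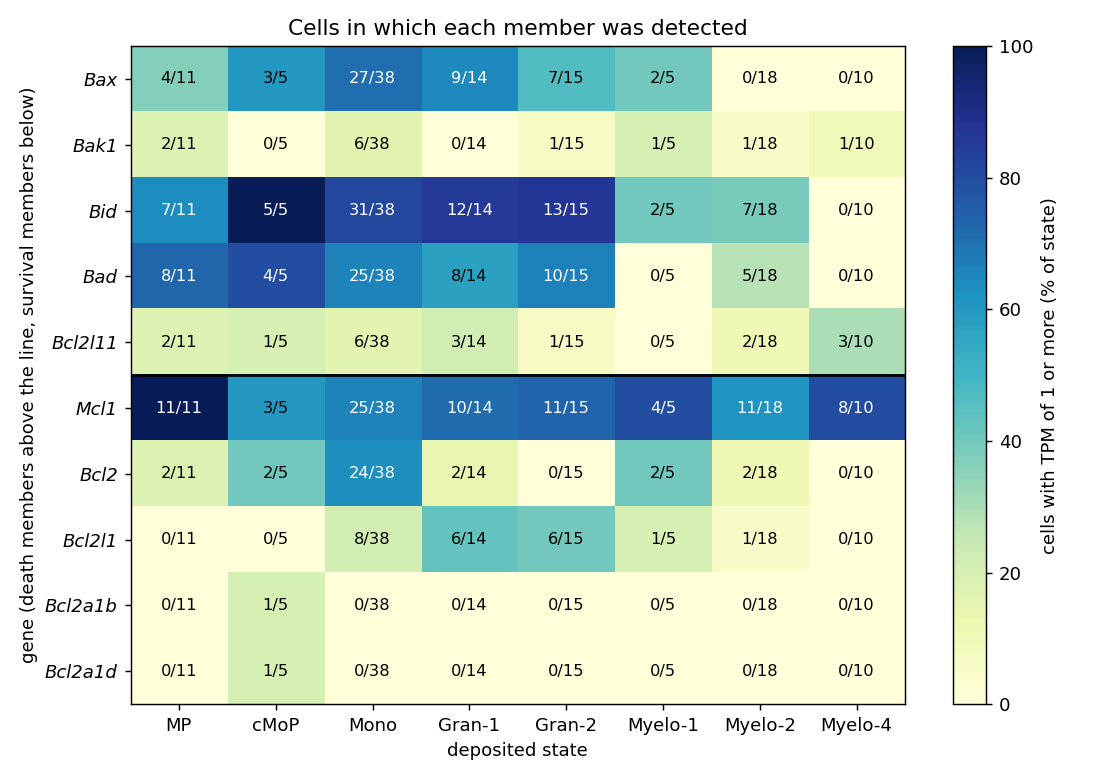
Share of cells in which each BCL2 family member was detected (TPM of 1 or more), by deposited state (columns, states of at least 5 cells) and gene (rows). Each box gives detected cells over all cells of the state, and colour gives the percentage. Bax, Bad and Bid fade towards Myelo-4 at the right, Mcl1 stays at 8 of 10 there, and the Bcl2a1 rows are filled in 1 cMoP cell.

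Bid, the BH3-only protein that caspase-8 cleaves to link death receptors to mitochondria, was the most widely detected death member, at 77 of 121 cells. In Gran-1 it ran from 0 to 886 TPM with a median of 66.5, in Mono from 0 to 794 with a median of 40.1, and in Gran-2 from 0 to 6266 with a median of 33.1. The value of 6266 TPM was in 1 CD11b+ GMP-P cell. Between 81.6% of Mono and 86.7% of Gran-2 cells were positive, and these 3 states overlapped throughout. Bid was detected in 7 of 18 Myelo-2 cells, with a range of 0 to 805 TPM and a median of 0.12. All 10 Myelo-4 cells were at or below 0.35 TPM and none was positive, which allows a share of up to 30%. Among positive cells alone the median was 64.7 TPM in Myelo-2 and 146 in Mono. The 4 positive Myelo-2 cells of CD11b+ GMP-P had a median of 489 TPM and a lowest value of 43.55. The 3 of late July GMP had a median of 28.3 TPM and a highest value of 64.7, so the ranges overlap. In MP, where 7 of 11 cells were positive, the levels were low, with a median of 2.40 TPM and a highest value of 93.4. Exons of Bid overlap those of Bcl2l13 on the opposite strand, which was detected in 12 of 38 Mono and 2 of 18 Myelo-2 cells, but no 150-base window of the Bid transcript occurs in another gene.

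Bad, a BH3-only protein that survival kinases hold inactive by phosphorylation, had its highest mean in cMoP, at 5.59 ± 3.66 (SD, n = 5 cells). Single cMoP cells held 0, 34.1, 41.7, 186 and 938 TPM. In Mono the range was 0 to 519 TPM with a median of 34.98, and in Gran-2 it was 0 to 497 with a median of 51.2. These 2 states overlapped fully, at 25 of 38 and 10 of 15 cells positive. Bad was in 5 of 18 Myelo-2 cells, at up to 285 TPM, and was listed at 0 in all 5 Myelo-1 and all 10 Myelo-4 cells. Part of Bad cannot be told from a neighbour: in GENCODE vM21, Gpr137 overlaps it on the opposite strand and 28.4% of the 150-base windows of its transcript also occur in a Gpr137 transcript. Gpr137 was detected in 11 of 38 Mono, 4 of 15 Gran-2 and 1 of 18 Myelo-2 cells, and 7, 4 and 1 of these also held Bad. Its part in the Bad values was not tested.

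Bcl2l11, which encodes the BH3-only protein Bim, had its highest mean in Myelo-4, from few cells. It was detected in 19 of 121 cells in all and in 3 of 10 Myelo-4 cells (30%, interval 6.67 to 65.2%). Myelo-4 ran from 0 to 397.5 TPM with a median of 0, with a mean of 2.45 ± 3.96 (SD, n = 10 cells). The next state, Gran-1, stood at 0.73 ± 1.69 (SD, n = 14 cells) with a highest value of 66.3 TPM. Most cells of both states sat at 0, and the interval of Myelo-4 overlaps that of every other state. Of the 3 positive Myelo-4 cells, 1 was CD11b+ GMP-P and the others were late July GMP.

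**Figure D2:**
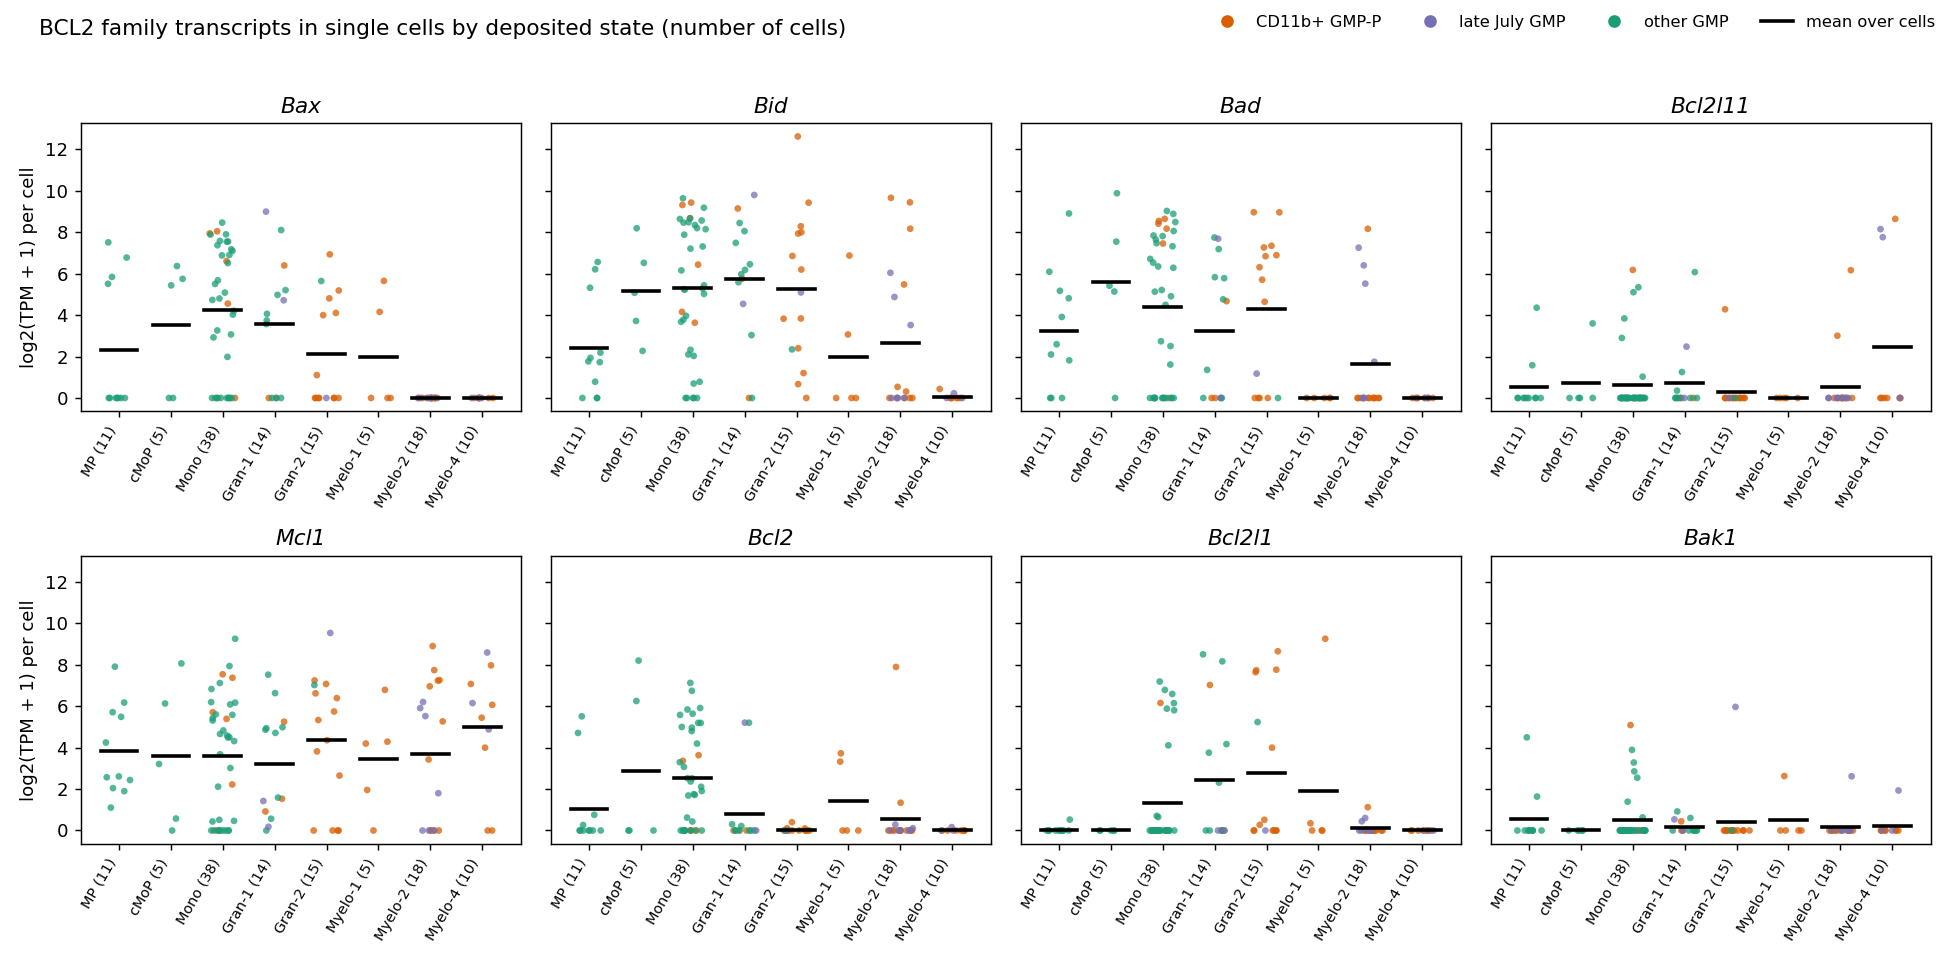
Level of 8 family members in single cells, as log2(TPM + 1) on the vertical axis, by deposited state (number of cells in brackets). Each point is 1 cell coloured by run group and black bars are means over cells. Bax is listed at 0 in all 28 Myelo-2 and Myelo-4 cells, while Mcl1 has positive cells in every state shown.

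Mcl1 was the survival member detected most often, in 84 of 121 cells, and it was present in all 8 states of at least 5 cells. In Myelo-4 it ran from 0 to 383 TPM with a median of 54.1, and 8 of 10 cells were positive (80%, interval 44.4 to 97.5%). Gran-2 cells ran from 0 to 737 TPM with a median of 39.2, Myelo-2 cells from 0 to 475 with a median of 23.6, and Mono cells from 0 to 607 with a median of 21.6. Every one of these states held both cells at 0 and cells at or above 383 TPM, and the states overlapped. MP was the state with Mcl1 in all cells, 11 of 11, but at low levels, from 1.15 to 238 TPM with a median of 5.10. State means lay between 3.22 ± 2.57 (SD, n = 14 cells) in Gran-1 and 5.01 ± 2.97 (SD, n = 10 cells) in Myelo-4. In contrast to Bax, Mcl1 had r = 0.041 with median detected genes over the 10 groups.

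Bcl2, the founding survival member, was detected in the largest share of cells in Mono, among states of at least 5 cells. In Mono it ran from 0 to 138 TPM with a median of 3.73, and 24 of 38 cells were positive (63.2%, interval 46 to 78.2%). Of the Mono cells, 2 of 6 were positive in CD11b+ GMP-P and 22 of 32 in the other run. cMoP cells reached 292 TPM, with 2 of 5 positive. Myelo-1 also had 2 of 5 positive, at up to 12.2 TPM. Gran-1 had 2 positive cells of 14, Gran-2 had 0 of 15, with a highest value of 0.32 TPM and an upper limit of 20%, and Myelo-4 had 0 of 10. Mono cells were thus often positive at modest levels and granulocytic cells mostly negative, although the 14 Mono cells without Bcl2 overlap with them. The highest granulocytic value was 236 TPM, in 1 Myelo-2 cell. Among the 27 Mono cells with Bax, 16 also held Bcl2, a share close to the 24 of 38 over all Mono cells. With Bcl2 in 0 of 15 Gran-2 cells, none of the 7 with Bax could hold it.

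Bcl2l1, whose long protein Bcl-xL protects cells and whose short splice form promotes death, was positive in a larger share of Gran than of Mono cells. It was detected in 6 of 14 Gran-1 cells, at up to 360 TPM, and in 6 of 15 Gran-2 cells, at up to 399.5 TPM. Of 38 Mono cells 8 were positive, at up to 144 TPM. MP, cMoP and Myelo-4 had no positive cell among 11, 5 and 10, and 0 of 11 allows a share of up to 27.3%. Gran cells held both zeros and high values, and the interval of the pooled 29 Gran cells, 23.5 to 61.1%, overlaps the 9.55 to 37.3% of Mono. The highest single value, 607 TPM, was in 1 of 5 Myelo-1 cells. The table gives 1 value per gene, so the long and short forms are not separated.

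Bcl2a1b and Bcl2a1d encode A1, a survival protein of activated and maturing myeloid cells. Both were listed at 0 in all cells except 1 cMoP cell of the other run, with 26.7 TPM of Bcl2a1b and 1.49 TPM of Bcl2a1d. The related Bcl2a1a, not among the 10 members, was detected in 1 Gran-1 cell at 196 TPM, and Bcl2a1c in none. These genes are near copies, and the first 90 coding bases of 3 of them in GENCODE vM21 are shown because they hold 6 of the 12 coding positions at which the 3 differ, which are in capitals.
Bcl2a1a: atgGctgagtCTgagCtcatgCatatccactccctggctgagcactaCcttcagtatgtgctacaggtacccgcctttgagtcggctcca
Bcl2a1b: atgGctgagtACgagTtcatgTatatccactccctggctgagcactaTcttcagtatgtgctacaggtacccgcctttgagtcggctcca
Bcl2a1d: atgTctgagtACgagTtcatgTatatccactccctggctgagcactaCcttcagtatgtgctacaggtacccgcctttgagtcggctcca
Over 516 coding bases, Bcl2a1b and Bcl2a1d differed at 6, an identity of 98.8%, and Bcl2a1a differed from them at 11 and 7. Of windows of 150 bases, the read length in the labels, 41.9% of the Bcl2a1b and 30.3% of the Bcl2a1d transcript also occur in a transcript of another gene. A read from such a window cannot be assigned to 1 copy, and how the authors' counting divided such reads is not stated. Windows shared with other genes were 6.13% for Bax, 6.26% for Bak1 and 4.96% for Bcl2, and there were none for Bid, Bcl2l1, Bcl2l11 and Mcl1. With shorter windows of 50 bases the shares were 17.6% for Bax, 18.2% for Bak1, 33.5% for Bad, 79.2% for Bcl2a1b and 79.5% for Bcl2a1d.

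In the order of state means of each member, no neighbouring pair of states was apart by more than the SDs over cells of both states. The orders above are therefore descriptions of means, and the counts of positive cells carry most of the information.

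Within a cell, Mcl1 was most often the highest survival member in each state of at least 5 cells except cMoP. In cMoP, Mcl1 and Bcl2 were highest in 2 of 5 cells each. What differed between states was how often another member was highest. Mcl1 had the highest TPM of the survival members in 64 of 121 cells, Bcl2l1 in 17, Bcl2 in 15 and Bcl2a1b or Bcl2a1d in 0, and 25 cells held none at 1 TPM or more. Mono and Gran-1 were both mixed. Mcl1 led in 17, Bcl2 in 8 and Bcl2l1 in 7 of 38 Mono cells, and Mcl1 led in 5, Bcl2l1 in 4 and Bcl2 in 2 of 14 Gran-1 cells. In Gran-2, Mcl1 led in 8 cells and Bcl2l1 in 5 of 15, and Bcl2 in none. In Myelo-4, Mcl1 led in 8 of 10 cells and the remaining 2 had no survival member. In MP, 10 of 11 cells were led by Mcl1. The 1 Gran-1 cell with Bcl2a1a is counted here under Bcl2l1, its highest member, although Bcl2a1a stood above it.

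The make-up of the family transcript pool also differed between states. Averaged over cells that held any member, each cell weighted equally, Mcl1 made up 12.95% of the summed family TPM in Mono, 20.4% in Gran-2, 40.4% in Myelo-2 and 69.9% in Myelo-4. All survival members together made up 22.9% in Mono, 42.5% in Gran-2, 43.1% in Myelo-2 and 69.9% in Myelo-4. As a share of the family TPM summed over cells, where high cells weigh more, they made up 18.8, 20.1, 37.9 and 52.3%. The Gran-2 value on that scale depends heavily on 1 cell with 6266 TPM of Bid. Its closeness to the Mono value therefore does not describe most Gran-2 cells. Within Myelo-4 the mean share of survival members was 82.95% in CD11b+ GMP-P and 43.8% in the 3 late July cells. Within Gran-2 the mean Mcl1 share was 11.5% in the 12 CD11b+ GMP-P cells with any member. It was 88.5% in the 1 late July cell and 58.9% in the 1 cell of the other run. In Mono it was 8.15% in CD11b+ GMP-P and 13.9% in the other run. The share of all survival members in the CD11b+ GMP-P cells was 9.82% in Mono and 35.9% in Gran-2. The mean pool per cell was 839 TPM in Gran-2, 477 in Mono, 231 in Myelo-2, 188 in Myelo-4 and 163 in MP. The Gran-2 mean includes the 1 cell with 6266 TPM of Bid and so gives no firm rank above Mono. Within Myelo-2 the mean pool was 326 TPM in CD11b+ GMP-P and 81.4 in late July GMP. A median of 4 members was detected in a Mono cell and of 1 in a Myelo-4 cell. Mcl1 with no death member was found in 6 of 10 Myelo-4 cells, 3 of 18 Myelo-2 cells and 0 of 38 Mono cells. These shares stand beside the lower number of detected genes in Myelo-4, and the part of that in them was not tested.

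**Figure D3:**
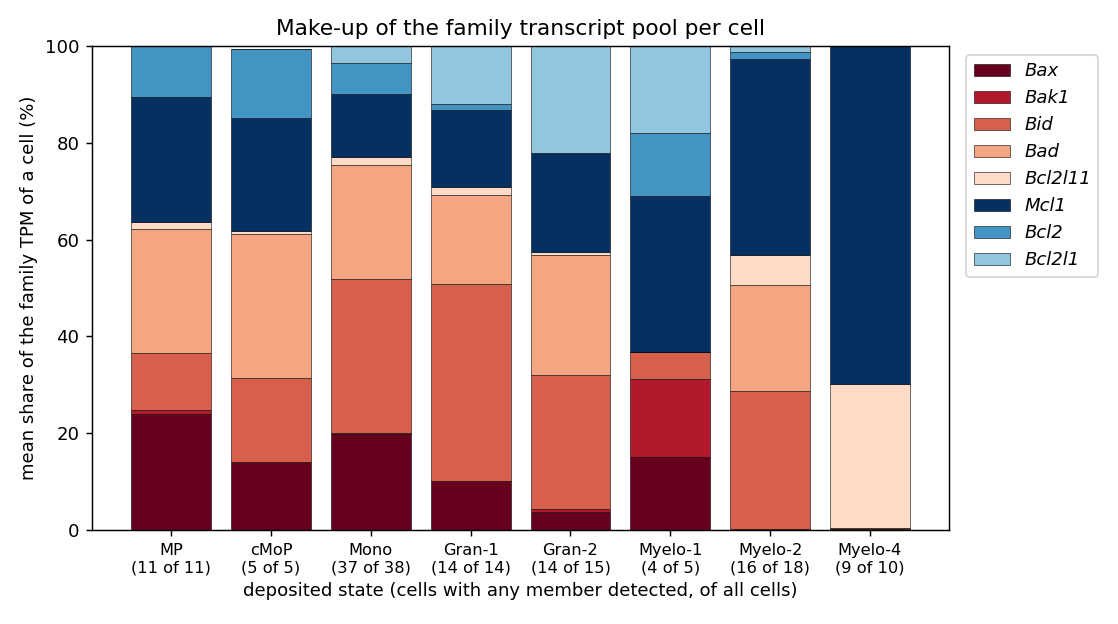
Make-up of the BCL2 family transcripts in each deposited state, as the mean over cells of each member's share of the cell's summed family TPM (vertical axis, percent). Under each state stand the cells with any member and all cells of the state. Red tones are death members and blue tones survival members. With runs pooled, Mcl1 makes up 12.95% in Mono and 69.9% in Myelo-4.

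Granulocytic and monocytic states could be set side by side within 1 run, which removes the run but not the difference in detected genes. Differences are of mean log2(TPM + 1), zeros included, and are not folds of a cell's level. Genes entered a comparison, and are called kept, when at least 10% of the cells on 1 of its sides held them, and differences of at least 1 are counted. In the other run, the 9 Gran-1 cells and 32 Mono cells had close medians of 4860 and 4671.5 detected genes. Of 8 members kept, 1 was higher in Gran-1 by at least 1, where 16.5% of all kept genes were, and 1 was lower, where 7.62% were. Bcl2 was the lower one, at 0.63 ± 1.72 (SD, n = 9 cells) in Gran-1 and 2.82 ± 2.37 (SD, n = 32 cells) in Mono, a difference of −2.18. It was detected in 1 of 9 against 22 of 32 cells, with intervals of 0.281 to 48.2% and 50 to 83.9%. These intervals nearly meet, cover counting error among these cells only and are no test between the states. Bcl2l1 was the higher one, by 1.62, with 5 of 9 against 7 of 32 cells positive. The 5 death members and Mcl1 all differed by less than 1, from −0.90 for Bax to 0.67 for Bid, and the member median was 0.00 beside 0.14 over all kept genes. The count of 2 of 8 is near that background. It was 4 with a pseudocount of 0.1 TPM and 0 with 10 TPM.

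The wider death machinery, given from lists of other pathway genes, is read against the 16.5% of all kept genes higher and 7.62% lower in Gran-1 than in Mono. Of 16 other BCL2 family genes, 8 were kept and none differed by 1, the largest being Bcl2a1a at 0.85, from its 1 cell, and Bnip3l, a mitophagy receptor, at −0.75. Of 14 caspase and apoptosome genes, 2 were higher, Casp1 by 1.61 and Aifm1 by 1.05, and 1 was lower, Casp6 at −1.38. Casp1 is the inflammatory caspase of the inflammasome, and Aifm1 encodes a mitochondrial flavoprotein. Of 7 kept inhibitors of apoptosis, 2 were lower, Xiap, which blocks caspases, at −1.83 and Birc3 at −2.18. Another 2 were higher, Naip2, an inflammasome sensor, by 1.52 and Birc2, named after its value was seen, by 1.40. Of 4 outer membrane channel genes, Vdac3 was lower, at −1.77 and the other 3 differed by less than 1. Among death receptor genes Tnfrsf1a was higher by 1.27, and in the p53 arm Cdkn1a, the p21 cell cycle inhibitor, was higher by 1.19. Csf1r, the receptor for the monocyte growth factor, was lower, at −1.58.

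MP cells, compared with Mono in the same run, had lower levels of 4 of the 8 members kept, where 13.4% of all kept genes were lower by at least 1, and of none higher, where 8.87% were. Bid was lower, at −2.60, Bax at −1.86, Bcl2 at −1.79 and Bcl2l1 at −1.32. Bid was detected in 7 of 11 MP and 25 of 32 Mono cells, with medians of 2.40 and 37.4 TPM. With a pseudocount of 10 TPM the count of 4 fell to 1. Mcl1 was 0.42 higher in MP. Median detected genes were 4455 and 4671.5, close to each other, and the member median was −1.01 beside −0.11 over all kept genes.

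Among CD11b+ GMP-P cells, the 6 Mono cells had higher levels than the 13 Gran-2 cells for 4 of 8 members kept, where 31.3% of all kept genes were higher by at least 1. These were Bax by 2.51, Bad by 2.03, Bid by 1.46 and Bcl2 by 1.12. Bcl2l1 was lower, at −1.79, where 11.8% of all kept genes were lower. The direction of Bcl2 and Bcl2l1 was the same as between Mono and Gran-1 in the other run, in cells that the 2 comparisons do not share. Bcl2 rested on 2 of 6 Mono cells against 0 of 13, and Bcl2l1 on 1 of 6 against 5 of 13. Bid turned to −0.9999 when the log2 ratio of mean TPM was used in place of the mean of logs. Among the Gran-2 cells, 1 held 6266 TPM of Bid. Mono cells held more detected genes here, with a median of 4434 beside 3760, and the share of all genes that were higher in Mono moved with it.

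Between Gran-2 and Myelo-2 within CD11b+ GMP-P, most genes that were detected had lower levels in Myelo-2, and so did Bad, Bid, Bax and Bcl2l1. Of 7 members kept, 4 were lower in the 11 Myelo-2 cells than in the 13 Gran-2 cells, where 43.4% of all kept genes were lower by at least 1, so the count is near that background. None was higher, where 5.29% of all kept genes were. Bad was lower, at −4.10, with 1 of 11 against 9 of 13 cells positive. Bcl2l1 was lower, at −2.71, Bid at −2.43 and Bax, listed at 0 in all 11 Myelo-2 cells, at −2.01. Mcl1 was at 4.25 ± 3.65 (SD, n = 11 cells) in Myelo-2 and 3.78 ± 2.92 (SD, n = 13 cells) in Gran-2, a difference of 0.47 while the median over all kept genes was −0.83. The 16 immediate early and heat shock genes had a median of 0.68 in the same comparison, with 6 higher and 3 lower, and their part in the Mcl1 value was not tested. Bcl2l11 and Bcl2 differed by 0.50 and 0.79, from 2 positive Myelo-2 cells each. Centred on that median, the call turns to 3 members higher, Mcl1, Bcl2 and Bcl2l11, and the same number of 4 lower. Bcl2 was detected in 0 and Bcl2l11 in 1 of the 13 Gran-2 cells, so neither had room to be much lower in Myelo-2. A difference of 0 already lay above those of 80.1% of all kept genes. Median detected genes were 2261 in Myelo-2 and 3760 in Gran-2. Among cells of both with 2000 to 3500 detected genes, Bad was in 0 of 6 Myelo-2 and 3 of 5 Gran-2 cells, Bid in 3 and 4, and Mcl1 in 4 and 2.

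The other lists of death pathway genes mostly held lower levels in Myelo-2, as did genes in general. All 4 outer membrane channel genes were lower, Vdac3 at −4.61, Tspo at −2.76 and Vdac2 at −2.25, with a list median of −2.50 beside the −0.83 of all kept genes. Of 12 kept caspase and apoptosome genes 7 were lower and none higher. Htra2, a protease released from mitochondria, was lower, at −3.78 and Cycs, which encodes cytochrome c, at −2.15, though Cycs was still detected in 10 of 11 Myelo-2 cells. Trp53, the p53 gene, was lower, at −5.25, detected in 4 of 11 against 11 of 13 cells. Cflar, which holds caspase-8 in check, was lower, at −2.88, and 5 of 8 kept death receptor genes were lower. Inhibitors of apoptosis moved less, with 1 of 6 kept genes lower, Birc6 at −1.47, and Xiap 0.76 higher. The Mcl1 turnover genes Huwe1, Usp9x and Fbxw7, which act on the Mcl1 protein, differed at −0.46, −0.62 and −0.49. Among survival cytokine receptors Csf3r, the G-CSF receptor of neutrophils, was lower, at −2.04 and Ifnar1 at −4.12.

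**Figure D4:**
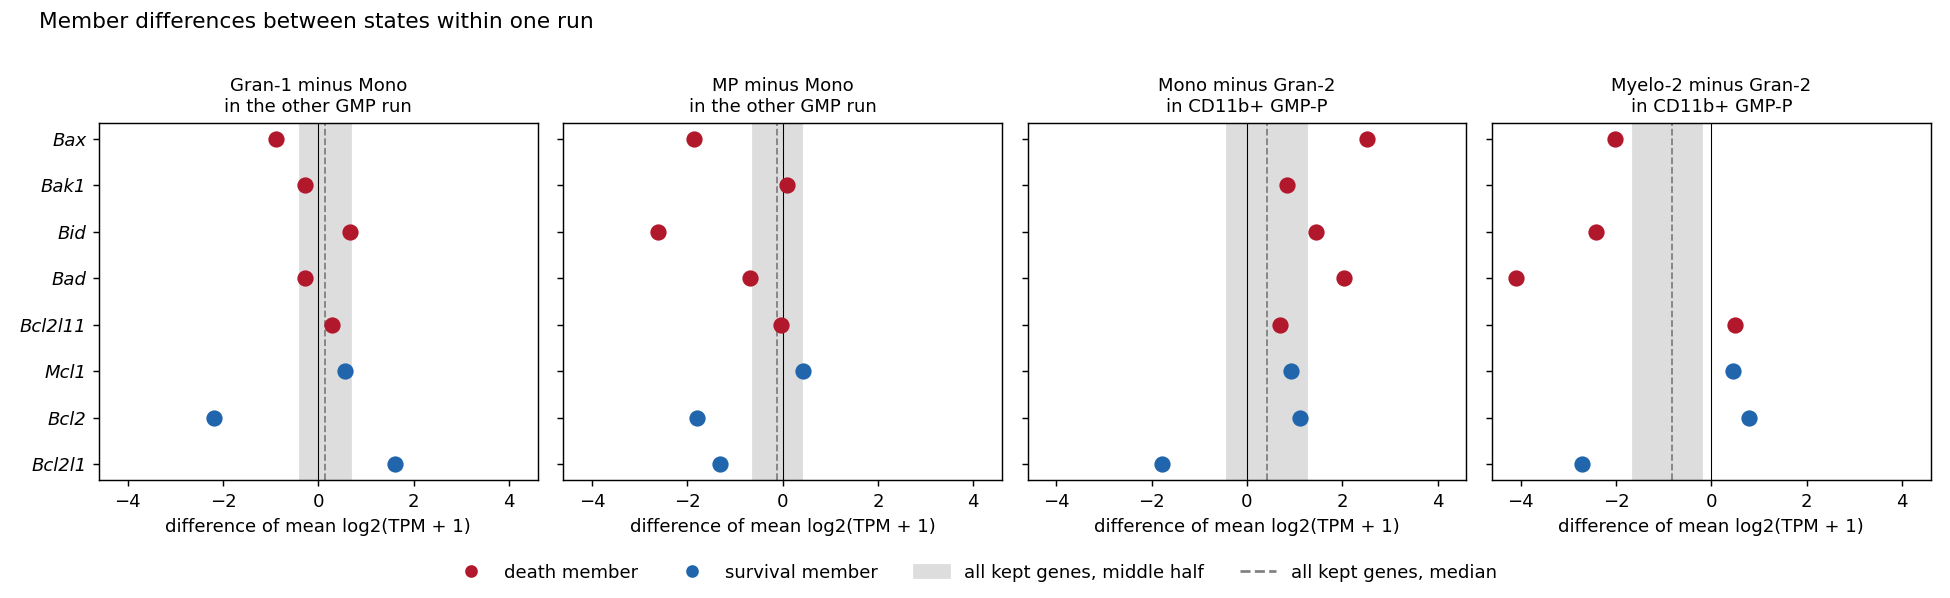
Differences of mean log2(TPM + 1) for 8 family members in 4 comparisons of states within a run (horizontal axis, first state minus second). Points are genes, red for death and blue for survival members. The grey band is the middle 50% of all kept genes and the dashed line their median. Between Gran-1 and Mono only Bcl2 and Bcl2l1 differ by 1 or more. From Gran-2 to Myelo-2, Bcl2, Bcl2l11 and Mcl1 lie right of the band, while Bax, Bid, Bad and Bcl2l1 lie left of it. Bcl2 and Bcl2l11 were detected in 0 and 1 of the 13 Gran-2 cells, so they had little room to lie left.

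From Myelo-2 to Myelo-4 in CD11b+ GMP-P, 4 members were kept. Bid was lower, at −2.99, from 4 of 11 to 0 of 7 positive cells, where 30.7% of all kept genes were lower by at least 1. None was higher, where 10.9% of all kept genes were. Mcl1 was level, with 7 of 11 and 5 of 7 cells positive and a difference of 0.11. Both states are thin in detected genes here, at medians of 2261 and 1642.

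Mono and Myelo-2 were the states with at least 5 cells in both populations. The GMP side differs between them. The 32 GMP Mono cells were all of the undated other run. The 7 GMP Myelo-2 cells were all late July GMP, with a late July date as for CD11b+ GMP-P. Within Mono, 3 of 8 members kept were higher in the 6 CD11b+ GMP-P cells than in the 32 GMP cells, where 17.5% of all kept genes were higher by at least 1, and 1 was lower, where 17.8% were. Bad was higher by 2.96, Bid by 1.92 and Mcl1 by 1.29, and Bcl2 was lower, at −1.65. Bid was in 6 of 6 CD11b+ Mono cells, between 11.4 and 686 TPM, with a median of 245. In the GMP Mono cells it ran from 0 to 794 TPM with a median of 37.4, so the ranges overlap. Within Myelo-2, 1 of 6 members kept was higher, Mcl1 by 1.48, where 11.4% of all kept genes were, and 1 was lower, Bad at −2.25, where 23.1% were. Mcl1 is an early response gene, and it was the member higher in both states. Beside it, the list of 16 immediate early and heat shock genes had a median difference of 2.39 in Mono, with 13 higher, and of 1.18 in Myelo-2, with 8 higher and 3 lower. Population, run and the level of these genes cannot be told apart, and their part in the Mcl1 difference was not tested. Granule genes also moved with population within Mono. All 6 secondary granule genes were higher in CD11b+ GMP-P, by a median of 5.78, and their summed level ran from 537 to 14275 TPM in its Mono cells and from 0 to 2759 in GMP, where Ngp and Ltf were detected in no cell. Of 6 basophil and mast cell genes 4 were kept, 3 of them higher and 1 lower, with sums from 0.29 to 1501 TPM and from 0 to 1173, and Mcpt8, Prss34 and Ms4a2 were detected in no CD11b+ Mono cell. The part of these cells' granule transcripts in the member differences was not tested.

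Pooled over states, the 46 CD11b+ GMP-P cells held Mcl1 as often as the GMP cells of either run group, in 32 of 46, 9 of 13 and 43 of 62 cells, or 69.6, 69.2 and 69.4%. Against the 13 late July GMP cells, 2 of 8 members kept were higher, where 12.7% of all kept genes were, and none lower, where 5.95% were. They were Bid by 1.11 and Bcl2l1 by 1.23. Against the 62 other GMP cells, 3 of 8 were lower, where 36.3% of all kept genes were, and none higher, where 2.74% were. Bax was lower, at −1.99, with 13 of 46 against 38 of 62 cells positive, Bcl2 at −1.59 and Bad at −1.17. The member median of −0.37 lay above the −0.68 of all kept genes. These pooled values mix states in different proportions, since Myelo cells are found among CD11b+ GMP-P and late July GMP and not in the other run, and both comparisons share the CD11b+ cells.

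By likeness of mean level over the 10 groups of a state within a run, among 5728 other genes, Bax was nearest to Wdr61 (r = 0.986), Nop16 (0.974) and Alad (0.973). Bad was nearest to Apbb1ip (0.983) and Bid to Cwc22 (0.958). Bcl2 was nearest to Rasa4 (0.937) and Bcl2l1 to Utp23 (0.896). Mcl1 had looser neighbours, 1810026B05Rik (0.865), Plekha2 (0.859) and the immediate early gene Dusp1 (0.824). Among the members themselves, Bad and Bid had r = 0.858, Bax and Bid 0.805, and Bax and Mcl1 0.159. The groups share runs and follow detected gene number, which had r = 0.795 with Bid and 0.776 with Bad, so these values describe the groups and carry no test.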

How the data were processed

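Each of the 121 samples is 1 cell. The submitters' processing notes name Bowtie2, RSEM and mm9, without versions or settings. The deposited table holds log2 values of 23946 genes. A log2(TPM + 1) scale was taken from these deposited values, because undoing it gave totals of 999517 to 1001450 per cell, as TPM have. A second deposited table names a state for each cell. No 2 cells had identical values. Doublets were not called.

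Levels, shares and differences were computed with python 3.11.15, numpy 2.4.6, pandas 2.3.3 and scipy 1.17.1, and the script was tested on simulated data. The detection limit was a TPM of 1, the pseudocount 1, and means needed at least 5 cells a side. Members, lists and comparisons were chosen with earlier results of these data known. Genes outside the 10 members were named by rule: up to 3 kept genes per list with the largest absolute difference in Gran-1 minus Mono and in Myelo-2 minus Gran-2, Bcl2a1a and Bcl2a1c, and the 3 genes most like each member among those detected in at least 25% of cells. Alternatives were pseudocounts of 0.1 and 10, a detection limit of 5 TPM, the log2 ratio of mean TPM, centring on the median of all kept genes and cells of at least 2000 detected genes. Gene overlaps and coding sequences came from GENCODE vM21, promoters from RefSeq (GRCm38.p6).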

Additional observations from a re-analysis of the deposited data

How the results depend on the processing

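Counts of members differing by at least 1 depended on the pseudocount. With 0.1 TPM in place of 1, they went from 2 to 4 in Gran-1 minus Mono, 5 to 8 in Mono minus Gran-2, 1 to 2 in Myelo-4 minus Myelo-2, 2 to 5 between populations within Myelo-2 and 2 to 4 against late July GMP. With 10 TPM they went to 0, 1 (from 4, MP minus Mono), 3, 2 (from 4, within Mono), 1 (within Myelo-2), 0 (late July GMP) and 0 (from 3, other GMP). The log2 ratio of mean TPM gave 7 (from 4) in Myelo-2 minus Gran-2, 3 in Myelo-4 minus Myelo-2, 4 within Myelo-2 and 5 against late July GMP. With it Bid in Mono minus Gran-2 turned from 1.46 to −0.9999. Mean Bid in these CD11b+ GMP-P cells was 306 TPM in Mono and 614 in Gran-2, where 1 cell held 6266. The medians were 245 and 72.3 TPM. Centring gave 7 in Myelo-2 minus Gran-2 and 5 within Myelo-2, and cells of at least 2000 detected genes gave 5 within Myelo-2. The cause of these shifts was not tested. The other 56 counts moved by less than 1.5 times, and of single-gene differences 512 moved by less than 1 SD over cells and 10 by more. The SDs over cells are wide, so a shift below 1 SD can still be large. The Bid difference that changed sign was counted apart. Myelo-4 minus Myelo-2 could not be computed at 2000 genes, with 1 and 6 cells left. The comparison at 2000 to 3500 detected genes was chosen after seeing the data. No paired analysis was possible because no label pairs cells across groups. Each population is 1 sample, read depth is unknown, and states of 5 to 18 cells leave wide intervals.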

Other observations

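States with fewer than 5 cells entered no comparison. The 1 HSCP-1 cell, of the other run, held no member at 1 TPM or more. The 1 MDP cell held 62.3 TPM of Bad, 51.2 of Mcl1, 45.3 of Bcl2l11 and 12.6 of Bcl2. Of the 2 Multi-Lin cells, 1 held 19.98 TPM of Bax and no other member, and the other held 38.8 TPM of Bcl2 and 8.82 of Bad. The 1 Myelo-3 cell, of CD11b+ GMP-P and with 967 detected genes, held 0.88 TPM of Mcl1 and no other member.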
